A study of Aspergillus nidulans with 9 samples.

Results

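The *tdi* genes of *Aspergillus nidulans* encode the enzymes that make terrequinone A, a prenylated bisindolylquinone. They were chosen by name and number: *tdiA* (AN8513), *tdiB* (AN8514), *tdiC* (AN8515), *tdiD* (AN8516) and *tdiE* (AN8517). Of these 5 genes among the 10988 rows of the count table, 3 had a row (*tdiA*, *tdiB* and *tdiD*), and AN8515 and AN8517 were not analysed here. RNA-seq libraries were made from total RNA with a strand-specific kit. The 9 libraries came from vegetatively grown cells (Vege), 3 of wild type (WT), 3 of a *veA* deletion (Δ*veA*) and 3 of a *laeA* deletion (Δ*laeA*). All strains grew for 24 h at 37 °C as shaken dark cultures in liquid minimal medium with 1% glucose. The study's strain list gives a Δ*veA* strain with *argB* in place of *veA* and a Δ*laeA* strain with *methG* in place of *laeA*. The labels do not tell which strain or transformant gave each library. They also do not say whether replicates were separate cultures, so p-values measure the spread between these libraries, which may be technical.

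Terrequinone A is built from L-tryptophan. TdiD, an aminotransferase, turns tryptophan into indolepyruvate, and TdiA, a single-module enzyme related to nonribosomal peptide synthetases, joins a pair of these molecules into a bisindolylquinone. TdiB, an aromatic prenyltransferase, attaches an isoprene unit from dimethylallyl diphosphate, and TdiC, an oxidoreductase, and TdiE act in the later steps. LaeA is a methyltransferase-like nuclear protein that controls many secondary metabolite clusters, and VeA brings it into the velvet complex with VelB. The *tdi* cluster is one of those known to need LaeA in this fungus. The paper places *tdiB* in the core sections of its VeA, LaeA and common gene networks. It built these networks from ChIP-seq, RNA-seq and known protein interactions.

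The libraries held 13396869 to 35755046 counts (median 20346515). Levels below are read counts scaled to library size with TMM factors (CPM, the usual per-million unit), and 9481 genes passed the filter on low counts. With library totals in place of TMM the median of all genes moved to -0.26 in Δ*veA* and -0.33 in Δ*laeA* (log2), so fold changes here are relative to the TMM scale. The *laeA* gene was at 34.2 to 37.9 CPM in WT and fell to 4.96 to 6.61 CPM in Δ*laeA*. The *veA* gene was at 108 to 116 CPM in WT and at 773 to 815 CPM in the 3 libraries labelled Δ*veA*, which on its face goes against their label. Counts per gene do not tell which part of the *veA* locus gave these reads. The label is kept here for these libraries, and each Δ*veA* direction refers to libraries bearing it. The hyphal genes *gpdA* and *actA* summed to 4354 to 4490 CPM in WT, 9268 to 10157 CPM for the Δ*veA* libraries and 10725 to 11466 CPM for those of Δ*laeA*. Most of this sum was *gpdA* (mean 3247 CPM in WT), which was called higher in both mutants (1.29 and 1.56). *actA* rose by less than 2-fold (0.50 and 0.46) and was not called. The paper places *gpdA*, a gene of glycolysis, in the core sections of its VeA, LaeA and common gene networks. Genes of conidiation summed to 51.4 to 53.2 CPM in WT. Their sum in Δ*veA* was 14.1 to 16.8 CPM, with 4 of 6 called lower, and in Δ*laeA* 19.6 to 22.3 CPM, with 3 of 6 called lower, and none was at 0 in a library. Over all genes tested, 19.9% and 14.5% were called lower. *yA* was not called in Δ*veA* (-0.12) or in Δ*laeA* (-0.066). Nor were *abaA* in Δ*veA* (-0.90) and *wetA* (-0.13) and *wA* (-0.59) in Δ*laeA*. The call of *abaA* was lost in Δ*laeA* without its replicate 1 or 3 (-0.92 and -0.94) and gained in Δ*veA* with library totals (-1.16) or without Δ*veA* replicate 1 (-1.03). Genes of sexual development summed to 1977 to 2025 CPM in WT. Their sum was 70.7 to 78.9 CPM for the Δ*veA* libraries and 341 to 364 CPM for those of Δ*laeA*, with *lsdA* at 0 in some libraries. Most of it was 1 gene, *esdC* (mean 1866 CPM in WT), which the paper names as a direct target of both VeA and LaeA. The marker sums moved with the *tdi* levels below, that of *gpdA* and *actA* in the opposite direction, and their part in them was not tested. In bulk RNA, fewer cells of a type and less RNA per cell cannot be told apart.

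The *tdi* genes gave few reads in every strain, and the levels of *tdiB* and *tdiA* in WT lay above those of both mutants. *tdiB*, the prenyltransferase gene, had the most reads of the 3. Its level was 1.4997, 2.17 and 0.954 CPM in the WT libraries (23, 89 and 22 reads). It was 0.648, 0.252 and 0.308 CPM in Δ*veA* (22, 5 and 6 reads). In Δ*laeA* it was 0.496, 0.048 and 0.592 CPM (8, 1 and 11 reads). The lowest WT library stood above the highest library of either mutant, while the mutants overlapped each other. The share of all genes separated from WT in this way was not counted. Such separation, here or for *tdiA* and the neighbouring rows below, is therefore not shown to be particular to these genes. Differences from WT were common by edgeR. An adjusted p below 0.05, with no fold minimum, was reached by 80.2% of genes tested for Δ*veA* and 73.4% for Δ*laeA*. The mean *tdiB* level was 1.54 ± 0.611 CPM (SD, n = 3) in WT, 0.403 ± 0.214 CPM in Δ*veA* and 0.378 ± 0.291 CPM in Δ*laeA*.

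*tdiB* fell in both mutants. The log2 fold change against WT was -1.86 (SE 0.44) in Δ*veA*, with an adjusted p of 0.000332 (edgeR quasi-likelihood, Benjamini-Hochberg). In Δ*laeA* it was -2.13 (SE 0.49), with an adjusted p of 0.000268 in the same edgeR test. Calls here required both an adjusted p below 0.05 and more than a 2-fold difference. By that rule 33.6% of all genes tested were called in Δ*veA* and 19.9% were called lower, and in Δ*laeA* 24.4% were called and 14.5% were called lower. *tdiB* was the 1 *tdi* gene tested, so its calls cannot be read as a share against that background. Both comparisons use the same WT libraries. Single libraries carried part of the size: without Δ*veA* replicate 1 the Δ*veA* value was -2.51, and without Δ*laeA* replicate 2, which held a single read, the Δ*laeA* value was -1.54. Leaving out WT replicate 2, the library with the most reads, gave -1.44 in Δ*veA* with an edgeR adjusted p of 0.0154.

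**Figure D1:**
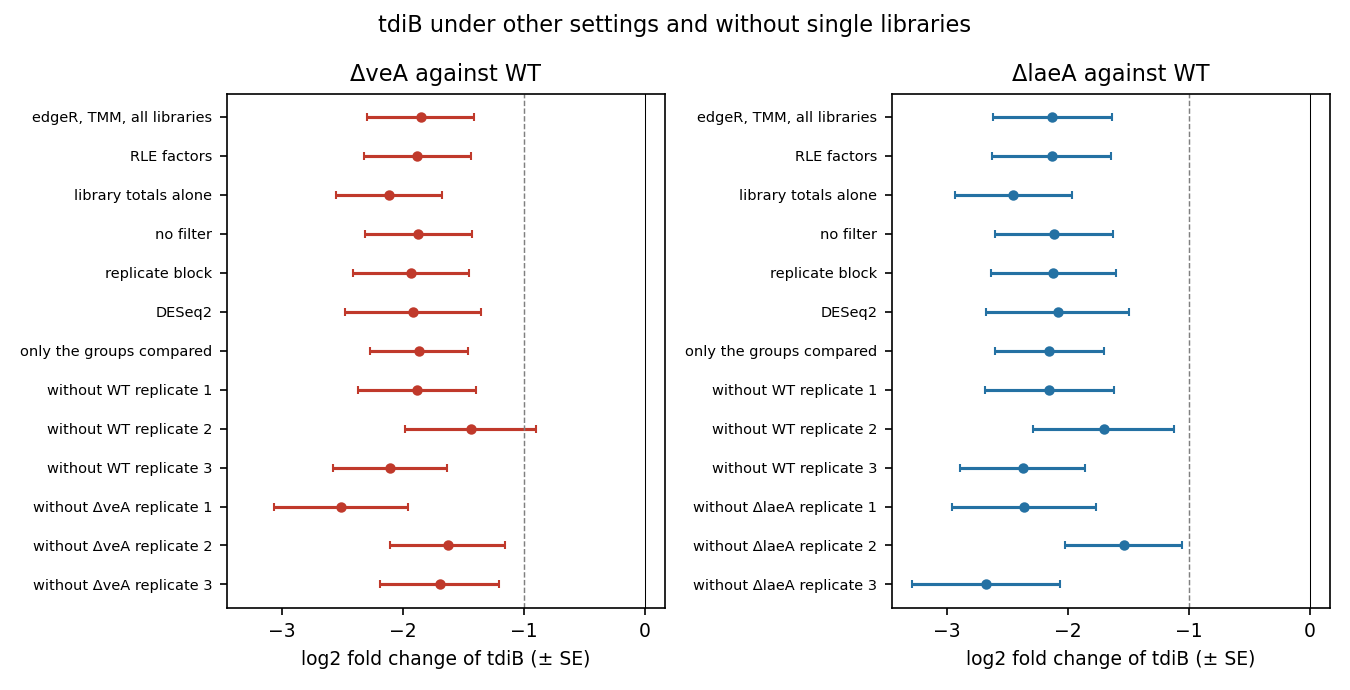
Log2 fold change of *tdiB* (± SE) against WT in each mutant, under each setting of the fit and with each library left out. The dashed line marks a 2-fold decrease, and every value shown lies below it, between -2.68 and -1.44.

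*tdiA*, the gene of the quinone-forming synthetase, was read less than *tdiB* and fell under the filter. Its level was 0.913, 0.269 and 0.304 CPM in WT (14, 11 and 7 reads). In Δ*veA* it was 0.265, 0.202 and 0 CPM (9, 4 and 0 reads). In Δ*laeA* it was 0.062, 0.190 and 0 CPM (1, 4 and 0 reads). All WT libraries lay above all libraries of both mutants, by a narrow margin against Δ*veA* replicate 1 (0.269 against 0.265 CPM), and 1 WT library stood far above the other two. The exact two-sided permutation test over libraries gave p = 0.1 against Δ*veA* and p = 0.1 against Δ*laeA*, the smallest value that 3 against 3 allows.

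Pooled over libraries, *tdiA* had 32 WT reads, 13 Δ*veA* reads and 5 Δ*laeA* reads. At matched depth the Δ*veA* level was 0.440 of WT (95% exact interval 0.212 to 0.862), and the Δ*laeA* level was 0.222 of WT (0.0677 to 0.575). These intervals cover counting error only and leave out the spread between libraries. With the filter removed, edgeR with Benjamini-Hochberg adjustment gave *tdiA* a log2 fold change of -2.22 in Δ*laeA* (SE 0.88, adjusted p 0.0232) and of -1.33 in Δ*veA* (SE 0.72, adjusted p 0.0932). DESeq2 gave -2.46 (adjusted p 0.0337) and -1.58 (adjusted p 0.123). The pooled log2 ratio ran from -3.81 to -1.58 in Δ*laeA* and from -1.99 to -0.66 in Δ*veA* when single libraries were left out, with the lowest values without Δ*laeA* replicate 2 and without Δ*veA* replicate 1.

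*tdiD*, the aminotransferase gene of the first step, was at or near the limit of detection throughout. The WT libraries held 0, 1 and 0 reads, the Δ*veA* libraries 3, 0 and 0, and the Δ*laeA* libraries 0, 0 and 0. A count of 0 allows up to 3 reads, which is 0.0733 to 0.196 CPM per library, and no library exceeded 3 reads. No difference in *tdiD* was detectable at this depth, and no fold is given.

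**Figure D2:**
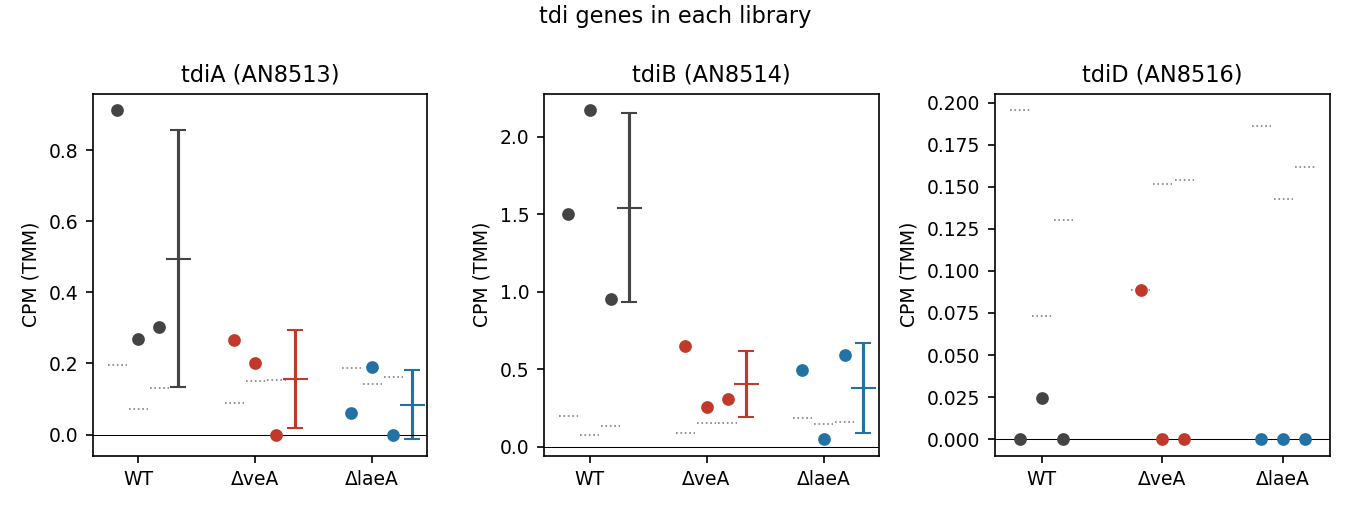
Levels of *tdiA*, *tdiB* and *tdiD* in CPM (vertical axis, a scale of its own in each panel) in the 3 libraries of each strain, replicates 1 to 3 from left to right. Points are libraries, wide ticks with bars beside them are the mean ± SD (left out for *tdiD*), and dotted lines mark 3 reads in that library. All WT points of *tdiA* and *tdiB* lie above the mutant points, and no *tdiD* point exceeds 3 reads.

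Few reads of any library came from the *tdi* genes. Summed over the 3 genes, the *tdi* level ranged over 1.26 to 2.47 CPM in WT. The Δ*veA* libraries ranged over 0.308 to 1.00 CPM, and the Δ*laeA* libraries over 0.238 to 0.592 CPM. *tdiB* held 80.2% of the summed *tdi* reads in WT (134 of 167, 95% Wilson interval 73.6 to 85.6%). It held 67.3% in Δ*veA* (33 of 49, 53.4 to 78.8%) and 80.0% in Δ*laeA* (20 of 25, 60.9 to 91.1%). These intervals overlap, but they cover counting error only and leave out the spread between libraries. The WT share dropped to 68.2% without WT replicate 2, and the Δ*laeA* share rose to 95.0% without Δ*laeA* replicate 2. Both values lie outside the interval of their group. The make-up of the *tdi* reads also varied among WT libraries, with 1.64, 8.09 and 3.14 reads of *tdiB* per read of *tdiA*.

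The mutants were compared directly to ask whether the *tdi* genes differed between them. For *tdiB* the log2 difference of Δ*veA* to Δ*laeA* was 0.27 (SE 0.60, 95% interval -0.91 to 1.46, edgeR adjusted p 0.699). It changed sign to -0.39 without Δ*veA* replicate 1 and to -0.31 without Δ*laeA* replicate 2. For *tdiA* the pooled ratio was 1.98 (95% exact interval 0.662 to 7.09), and the exact permutation test gave p = 0.5. As a log2 ratio it was 0.98, and it was 2.62 without Δ*laeA* replicate 2, 0.40 without Δ*laeA* replicate 3 and 0.18 without Δ*veA* replicate 1. In this contrast 18.4% of all genes were called, and 0 *tdi* genes were. Both intervals include equal levels, and both reach more than 2-fold higher in Δ*veA*, so these reads do not show that the mutants had the same level.

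The rows numbered beside the *tdi* genes changed in both directions. The RefSeq gene table placed AN8513, AN8514, AN8518, AN8516, AN8520 and AN8521 in that order, so AN8518 and AN8520 lie among or next to the *tdi* genes. Neither has a gene name there, and whether they are *tdiC* and *tdiE* under other numbers was not settled by the sources used here. They are counted as neighbours by number. Of the 20 identifiers numbered next to the cluster, 10 on each side, 19 had a row and 13 were tested. In Δ*veA* 4 were called higher, 4 lower and 5 passed neither way, where the background was 13.6% higher and 19.9% lower. In Δ*laeA* 5 were called higher, 3 lower and 5 neither way, where the background was 9.9% higher and 14.5% lower. The median of their log2 fold changes was 0.01 for Δ*veA*, with AN8526 counted in although WT and Δ*veA* held at most 2 of its reads. For Δ*laeA* the median was 0.78, and over all genes tested the medians were 0.0012 and -0.0041. Between the mutants 1 was called higher and 3 lower in Δ*veA*, where 6.74% and 11.6% of all genes were. Without AN8518 and AN8520, a split made after their values were seen, 11 neighbours were tested. Of these, 4 were called higher and 2 lower in Δ*veA*, and 5 higher and 1 lower in Δ*laeA*, with medians of 0.50 and 0.84.

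AN8518, placed between *tdiB* and *tdiD*, was lower in both mutants. Its level was 5.02, 6.79 and 6.12 CPM in WT, 0.530, 0.454 and 0.154 CPM in Δ*veA*, and 0.496, 1.14 and 0.377 CPM in Δ*laeA*. The WT libraries were far above both mutants, which overlapped each other. AN8518 fell by 3.88 on the log2 scale in Δ*veA* (SE 0.31, edgeR adjusted p 3.28e-13) and by 3.12 in Δ*laeA* (SE 0.30, edgeR adjusted p 3.58e-11). Without Δ*laeA* replicate 2 the latter value was -3.79. Between the mutants the log2 difference was -0.77 (SE 0.45, edgeR adjusted p 0.128), and single libraries decided it. It passed the call without Δ*veA* replicate 1 (-1.20, edgeR adjusted p 0.0488) and without Δ*laeA* replicate 3 (-1.06, edgeR adjusted p 0.0444). It was -0.089 without Δ*laeA* replicate 2 (edgeR adjusted p 0.893) and -0.47 without Δ*veA* replicate 3.

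AN8520, next to *tdiD* on its other side, was also lower in both mutants. It was at 1.63, 1.27 and 1.13 CPM in WT, at 0.236, 0.252 and 0.719 CPM in Δ*veA* and at 0.248, 0.285 and 0.108 CPM in Δ*laeA*. The WT libraries did not overlap either mutant. AN8520 changed by -1.79 (log2, SE 0.43, edgeR adjusted p 0.000354) in Δ*veA* and by -2.58 (SE 0.51, edgeR adjusted p 3.66e-05) in Δ*laeA*. Without Δ*veA* replicate 3, the highest of its group, the Δ*veA* value was -2.41. Between the mutants the log2 difference was 0.79 (SE 0.63, 95% interval -0.45 to 2.03, edgeR adjusted p 0.268), and 0.17 without Δ*veA* replicate 3.

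Called neighbours on the *tdiA* side went both ways. AN8512, numbered next to *tdiA*, was at 0.456, 0.464 and 0.043 CPM in WT, at 1.502, 1.41 and 1.08 CPM in Δ*veA* and at 4.40, 4.90 and 5.27 CPM in Δ*laeA*. The 3 groups did not overlap, with Δ*laeA* highest, and the share of all genes separated in this way was not counted. AN8512 rose by 1.99 on the log2 scale in Δ*veA* and by 3.84 in Δ*laeA*, and the difference between the mutants was -1.84 (edgeR adjusted p 5.58e-07). Without WT replicate 2 the values against WT were 2.64 and 4.49. AN8503, farther out on the same side, fell in both mutants (-2.22 and -1.67). On the *tdiD* side, AN8525 rose by 2.36 on the log2 scale in Δ*veA* and by 2.60 in Δ*laeA*. AN8521 had 0, 9 and 0 reads in WT, 21, 8 and 12 in the Δ*veA* libraries and 7, 12 and 14 in those of Δ*laeA*. It was called higher in both mutants (2.28 and 2.37), but the size rests on WT replicate 2, the only WT library with a read. AN8526 was at 8.62, 8.95 and 9.20 CPM in Δ*laeA*, at 0 in the 3 libraries of Δ*veA* and at 0.13, 0 and 0 CPM in WT. AN8524, also on that side, fell in Δ*veA* (-2.43) and had -0.77 in Δ*laeA*. No source used here names a strand setting for counting, and reads of overlapping neighbours cannot be told apart.

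**Figure D3:**
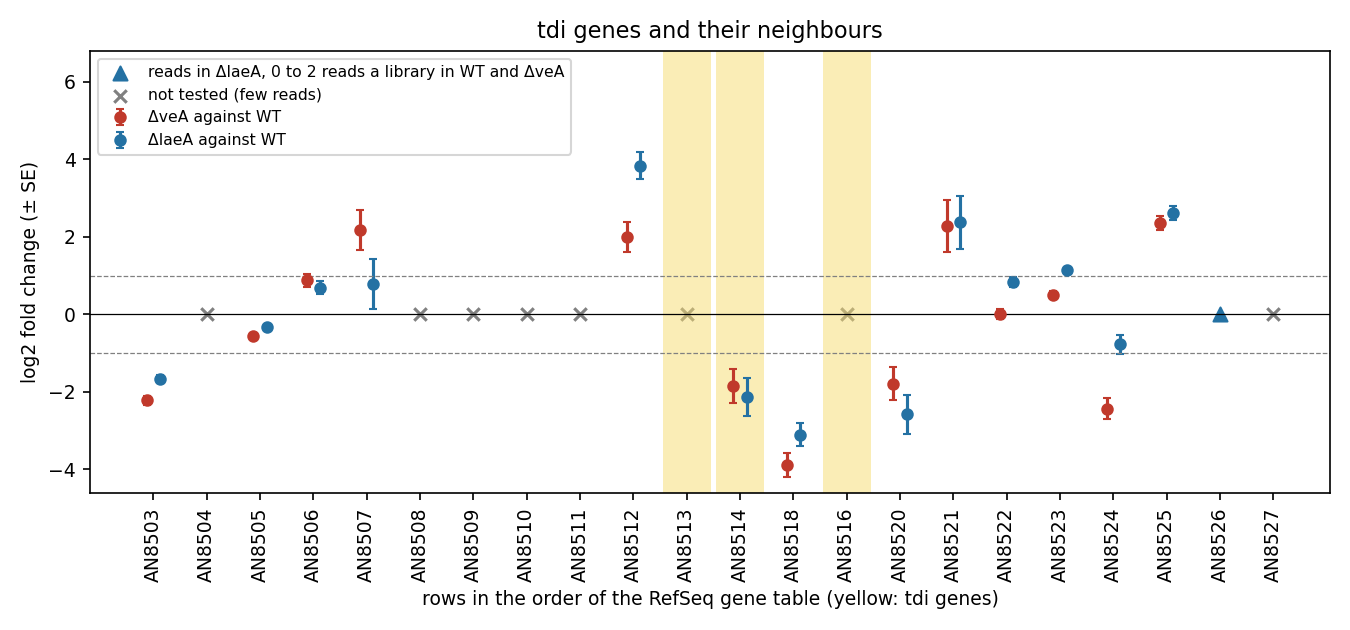
Log2 fold change (± SE) against WT of the *tdi* genes (yellow) and the rows numbered beside them, in the order of the RefSeq gene table. Dashed lines mark 2-fold, crosses mark rows not tested, and a triangle marks AN8526. That row was tested and called higher in Δ*laeA*, but its folds are not drawn because WT and Δ*veA* held 0 to 2 reads a library. *tdiB*, AN8518 and AN8520 lie below -1 in both mutants, and AN8512, AN8521 and AN8525 lie above 1.

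Genes listed for the precursor pathways of terrequinone A differed in direction. On the TMM scale *trpB*, *trpC* and *aromA* rose by less than 2-fold in both mutants, *cpcA* fell, and the mevalonate genes went both ways. Of 10 listed genes of tryptophan and aromatic amino acid biosynthesis, 4 had a row by name, and 0 passed the 2-fold call in any comparison by edgeR with TMM factors, although all 4 had an adjusted p under 0.05 in each. In Δ*veA* the log2 fold changes were 0.94 for *trpB*, 0.69 for *trpC*, 0.83 for *aromA* and -0.92 for *cpcA*, the cross-pathway control regulator of amino acid biosynthesis. In Δ*laeA* they were 0.44, 0.30, 0.21 and -0.54 in the same order. With library totals *cpcA* was called lower in Δ*veA* (-1.18). Passing the adjusted p alone was common, at 80.2% of all genes tested in Δ*veA*, 73.4% in Δ*laeA* and 70.1% between the mutants. The 2-fold call was passed by 33.6%, 24.4% and 18.4% of them, so a count of 0 among 4 genes says little about the list. The median of the list was 0.76 for Δ*veA* and 0.26 for Δ*laeA*.

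The mevalonate pathway makes dimethylallyl diphosphate, the substrate from which TdiB takes its prenyl group. Of its 7 genes found by name, 3 were called higher and 1 lower in Δ*veA*, where 13.6% of all genes were called higher and 19.9% lower. The higher ones were *erg13*, the hydroxymethylglutaryl-CoA synthase gene (1.37), *idi1*, the isopentenyl diphosphate isomerase gene (1.05, and 0.98 without WT replicate 1), and *erg20*, the farnesyl diphosphate synthase gene (1.64). The *erg20* enzyme uses dimethylallyl diphosphate rather than supplying it. The lower one was *erg8*, the phosphomevalonate kinase gene (-1.35). In Δ*laeA* *erg20* (1.18) was called higher and *erg8* (-1.12) lower, beside 9.9% and 14.5% of all genes. With library totals in place of TMM the *idi1* value in Δ*veA* (0.79) and the *erg20* value in Δ*laeA* (0.86) did not reach 2-fold. The median log2 fold change of the list was 0.61 for Δ*veA* and 0.55 for Δ*laeA*.

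Enzyme families of *tdiA* and *tdiB* were set beside them. Of 9 other peptide synthetase backbone genes, 7 were tested, and Δ*veA* had 1 higher and 1 lower, while Δ*laeA* had 2 higher and 2 lower. Over all genes 13.6% were higher and 19.9% lower in Δ*veA*, beside 9.9% higher and 14.5% lower in Δ*laeA*, and with 7 genes the Δ*veA* counts are near that background. The medians of the list were 0.085 and 0.13. *ivoA*, whose product acts on tryptophan in conidiophore pigment formation, was called lower in both mutants. Its level was 2.54, 1.86 and 2.65 CPM in WT, 0.913, 0.606 and 0.976 CPM in Δ*veA* and 0.620, 0.904 and 0.861 CPM in Δ*laeA*, and the log2 fold changes were -1.44 and -1.51. *atnA*, of aspercryptin synthesis, rose in both (1.81 and 1.44). *apdA*, of aspyridone synthesis, rose in Δ*laeA* (1.72), and *easA*, of emericellamide synthesis, fell there (-1.01). The *easA* call was lost without WT replicate 1 (-0.96), WT replicate 3 (-0.97) or Δ*laeA* replicate 1 (-0.91).

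The aromatic prenyltransferases moved in the direction of *tdiB*. All 3 listed were called lower in both mutants, in comparisons with 19.9% and 14.5% of all genes lower. *xptA*, of prenyl xanthone synthesis, averaged 75.6 CPM in WT and changed by -8.69 on the log2 scale in Δ*veA*. It had 0 counts in Δ*laeA*, which is at least 463-fold lower taking 3 counts per library as the limit. *xptB*, of the same pathway, changed by -5.88 and -6.24. *nptA*, a prenyltransferase gene of nidulanin A synthesis, changed by -4.48 in Δ*veA* and by -1.33 in Δ*laeA*, a difference of -3.15 between the mutants.

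**Figure D4:**
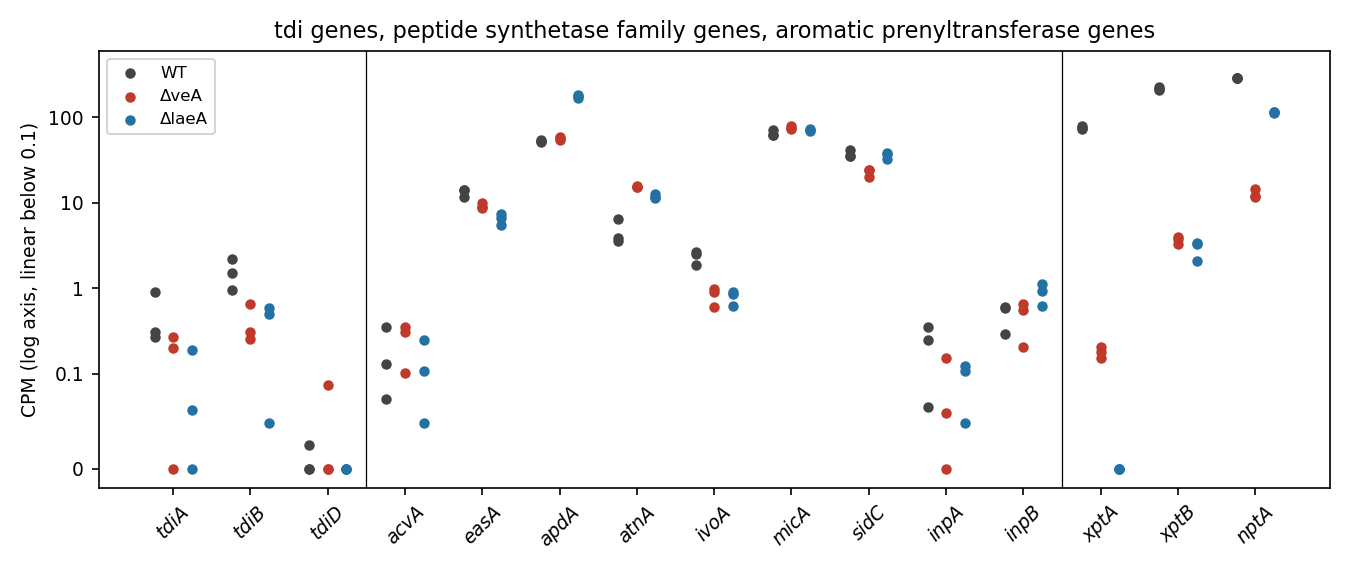
Levels in CPM (log axis, linear below 0.1) of the *tdi* genes, peptide synthetase family genes and aromatic prenyltransferase genes. Each point is 1 library of WT, Δ*veA* or Δ*laeA*, and since CPM is not corrected for gene length, libraries can be compared within a gene only. *tdiB* lies between 0.048 and 2.17 CPM, and *xptA* averages 75.6 CPM in WT with 0 in Δ*laeA*.

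Other clusters with a peptide synthetase were set beside *tdiB*. In the penicillin cluster, *ipnA*, the isopenicillin N synthase gene, rose by 1.12 on the log2 scale in Δ*veA* and fell by 2.43 in Δ*laeA*, and *aatA*, the acyltransferase gene, had 1.30 and -1.81. The Δ*veA* call of *ipnA* was lost without Δ*veA* replicate 1 (0.87) and with library totals (0.86). Their differences between the mutants were 3.55 and 3.10, where that of *tdiB* was 0.27. In the emericellamide cluster *easD* changed by -1.87 and -4.89, and *easB* by -1.65 in Δ*veA* and -0.47 in Δ*laeA*. *easC* changed by -2.59 in Δ*veA* and had 0 counts in Δ*laeA*, at least 49.6-fold lower by the same limit.

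Among the regulators, *velB* log2 fold changes were 0.76 (Δ*veA*) and 0.46 (Δ*laeA*). *mpkB*, a MAP kinase gene, fell by 1.27 in Δ*veA* and had -0.90 in Δ*laeA*, which did not reach 2-fold (-1.22 with library totals). The paper, citing earlier work, describes its product as acting on *tdiB* expression. The 5 genes nearest to *tdiB* in their course over the 9 libraries were AN5733, AN2657, AN3042, AN7754 and AN10659. Likeness was the root mean square difference of log2(CPM + 1), centred on the WT mean, among 8899 genes. It was 0.175 for AN5733 and 0.207 for AN10659, with Pearson r of 0.937 and 0.917 over the 9 libraries, of which the 3 of a strain share their genotype. The pseudocount of 1 damps changes at low levels, so genes with smaller fold changes than *tdiB* can rank near it. Against WT, AN5733 had log2 fold changes of -1.45 and -1.73, AN2657 of -1.41 and -1.60, and AN10659 of -1.78 and -1.49, while AN3042 had -0.82 and -0.89 and AN7754 -0.77 and -1.11. AN8520 ranked 349 by this measure (0.323), and AN8518, with its larger change, ranked 6487 (1.17).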

How the data were processed

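The authors aligned reads with HISAT2 2.1 and counted them per gene with featureCounts 1.5.0, per the labels, which also list DESeq2 1.6.3. Default settings were used per the methods, which name no strand setting, and the genome and annotation came from an NCBI record of *A. nidulans*. The deposited values are raw read counts, 10988 rows by 9 libraries, of which 31 repeated an identifier and were kept as rows of their own. Library totals were 13396869 to 35755046, so 3 counts, the limit that a count of 0 allows, were 0.0733 to 0.196 CPM. From the counts, edgeR 4.0.16 (R 4.3.3, limma 3.58.1) was run with TMM factors, filterByExpr and a robust quasi-likelihood fit of genotype over all 9 libraries. Benjamini-Hochberg adjustment covered the 9481 genes tested. Calls needed more than 2-fold and an adjusted p below 0.05. Genes under the filter were described by pooled reads with exact intervals (Python 3.11.15, scipy 1.17.1). Scripts were tested on simulated data.

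Alternatives were DESeq2 1.42.0, RLE factors, library totals, a minimum of 10 counts in each library, no filter, fits of the compared groups alone, no fold minimum, a replicate block and leaving out each library. Named genes were all *tdi* members, the listed neighbours, families, precursor pathways, clusters, regulators and markers, and the 5 genes nearest in course (WT mean of at least 1 CPM, pseudocount 1). The members and lists were chosen with earlier results of these data known. RefSeq names were matched by locus tag for 10060 rows, and its assembly served only for names and neighbour order. A gene found by the symbol *hmgA* encodes homogentisate dioxygenase and was set aside from the mevalonate list. No coordinates or gene lengths were used, so levels are to be compared between libraries, not between genes.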

Additional observations from a re-analysis of the deposited data

How the results depend on the processing

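The calls of *tdiB* against WT held in every alternative that could fit it, with edgeR or DESeq2 adjusted p of 4.89e-05 to 0.0154 for Δ*veA* and 2.74e-05 to 0.00975 for Δ*laeA*. With at least 10 counts in every library *tdiB* was left out, so 0 *tdi* genes were called in either mutant, and with only the mutants in the fit it had no value between them. With no filter and with DESeq2, 2 *tdi* genes were called in Δ*laeA*, since *tdiA* was added. *tdiD* was then tested as well and not called, and over all genes 2467 and 2379 were called. With so few members the count cannot be read as a share against those genes. Without a fold minimum, 7601, 6960 and 6645 genes passed in Δ*veA*, Δ*laeA* and between the mutants, in place of 3181, 2312 and 1740. Leaving out single libraries gave 3184 to 3249, 2311 to 2338 and 1723 to 1772. The *tdiB* values then ran from -2.51 to -1.44, from -2.68 to -1.54 and from -0.39 to 0.83. Library totals moved the share of calls that were lower in Δ*veA* from 59.4% to 74.0%, and in Δ*laeA* from 59.4% to 77.1%. Same-numbered libraries mostly did not deviate together (r from -0.0704 to 0.207 over 9 pairs). The 1 pair over 0.1 was replicate 1 of WT and of Δ*veA*. With a replicate block *tdiB* had -1.93, -2.12 and 0.19, with the same calls. The percentage of *tdi* reads from *tdiB* was 95.0% in Δ*laeA* without replicate 2. Depth limits *tdiD* and the zeros of *tdiA*: a library with 0 reads allows a level of up to 0.196 CPM.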
